A study of Mus musculus with 8 samples.

Results

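Treatment of a fibroblastic reticular cell (FRC) line with 15 mmol/L lactic acid (LA) was compared here with control conditioned medium (CCM), the medium that FRCs had conditioned themselves. The members are the genes tested in that comparison, and they were chosen by count alone: 12137 of the 55367 genes in the count table had at least 10 counts in at least 3 of the 8 libraries of the series. The comparison rests on 4 of the 8 libraries, 2 with LA and 2 with CCM. It asks which changes seen with LA against its own water control also stand against the other control of the study.

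FRCs are the mesenchymal cells that build the collagen network of the lymph node and organise T cells along it through secreted chemokines and interleukin 7. Lactate is carried across the plasma membrane together with a proton by the monocarboxylate transporters, and lactate dehydrogenase converts it to pyruvate inside the cell. A medium with lactic acid therefore brings both a carbon source and acid. The line was derived from lymph nodes of C57BL/6 mice with the p53 ER/ER genotype, and all 3 groups used here are cultures of this one line. The LA group received RPMI with lactic acid dissolved in water, the vehicle group received RPMI with the same amount of water, and the CCM group received RPMI that had stood on FRCs for a day and was then filtered and frozen. All media were supplemented with a low concentration of serum, and RNA was taken after 4 days. LA and CCM media thus differ both in the added acid and in the conditioning and freezing of the control medium, and the parts of these in any difference between LA and CCM cannot be told apart from these libraries alone. The remaining group, medium of B16.F10 melanoma cells (TCM), entered the filter on counts and the fit, where it helped to estimate the spread, and is not compared here.

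Several markers of FRCs were present in every library of the 3 groups, and others were near 0. Podoplanin (Pdpn) was measured at 123 and 130.0 CPM, counts scaled to 1000000 in each library, in the LA libraries and 139.7 and 133 in the CCM libraries, Vcam1 at 141 and 142 and 183 and 173, Pdgfrb at 389 and 369 and 419 and 392, and the lymphotoxin receptor Ltbr at 129 and 121 and 132 and 118. Thy1, also an FRC marker, was near 0, with 1 and 4 counts with LA, 7 and 2 with CCM and 3 and 1 with vehicle, and was not tested. Of 22 listed genes of FRC identity 13 passed the filter on counts. The other 9 were Thy1, Icam1, Madcam1, Lepr, Bst1, Itga7 and the lymphoid chemokines Ccl19, Ccl21a and Cxcl13. Cxcl13 had 43 counts in CCM replicate 1 and 0 in the other LA, CCM and vehicle libraries, whereas Ccl19 and Ccl21a had at most 1 in any. Ptprc (CD45), Epcam and Tyr had 0 counts in these 6 libraries, which allows at most 0.364 CPM in the shallowest, and the endothelial genes Pecam1 and Cdh5 had 1 to 9. Of the melanocyte markers besides Tyr, Mlana had 1 count in LA replicate 2 and 0 in the other libraries of these groups. Pmel passed the filter, with 15 and 21 counts with LA, 21 and 10 with CCM and 11 and 18 with vehicle. Total counts lay between 8232889 and 14107964 per library, so that 3 counts corresponded to 0.213 to 0.364 CPM. Floors of this kind cover counting error only. Replicates differed by more than counting noise, with a chi-square over its degrees of freedom of 6.98 for LA, 3.14 for CCM and 4.64 for vehicle, where noise alone gives 1. The labels call the libraries replicates without saying whether they came from separate cultures, and the paper describes them as 2 biological replicates. P-values rest on a spread between replicates shared over all 4 groups. That spread includes the TCM libraries, whose chi-square over its degrees of freedom was the largest at 19.2.

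A gene was called when its adjusted p from edgeR's quasi-likelihood test was under 0.05 and its log2 fold change (log2 FC) lay beyond 0.39 in either direction. Between LA and CCM, 76 genes were called, 0.626% of those tested. Of these, 36 (0.297% of all genes) were higher with LA and 40 (0.33%) were lower. At an unadjusted p under 0.05 there were 550 higher and 743 lower genes, and the median log2 FC over all genes was −0.01. Between LA and vehicle the same rule called 310 genes (2.55%), with 159 higher (1.31%) and 151 lower (1.24%). Between CCM and vehicle, the controls themselves, it called 158 genes (1.3%), with 109 higher (0.898%) and 49 lower (0.404%) with CCM. These shares over all genes are the background for the calls of every gene list below.

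Of the 310 genes called against vehicle, 48 were also called against CCM in the same direction, 23 higher and 25 lower, and 0 were called in opposite directions. These are 15.5% of the calls against vehicle and 63.2% of those against CCM. The same LA libraries enter both comparisons, so the count describes which changes stand and is not independent support for either. The other 28 calls against CCM, 13 higher and 15 lower, were not called against vehicle. In all 76 genes the LA and CCM libraries did not overlap in CPM. This follows largely from their selection on the same libraries and is no further support. The same goes for statements below that LA lay apart from vehicle libraries in genes called against both controls. The share of all tested genes without overlap is not given here. By GENCODE M21, 72 of the 76 are protein-coding genes, 26 overlap a gene on the opposite strand and 13 one on the same strand, and the counts of such genes are less certain because the sources used here do not say whether counting used the strand.

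**Figure D1:**
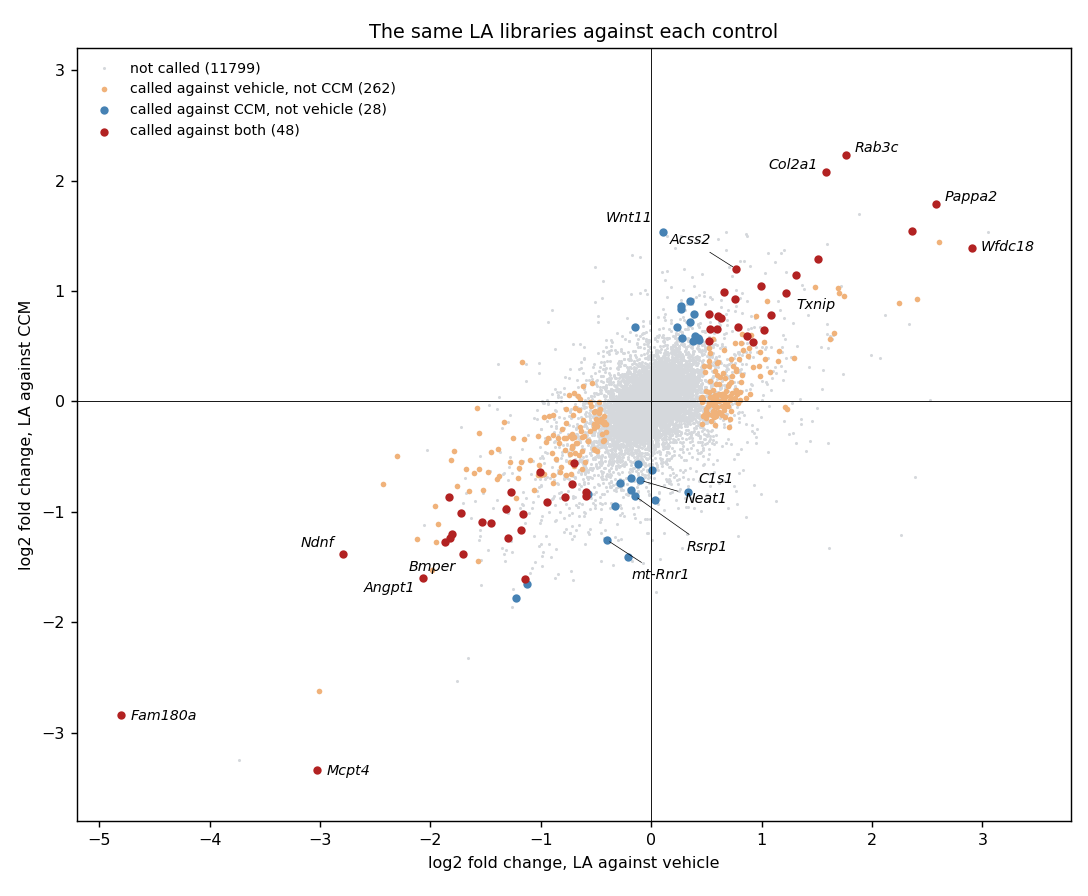
Log2 FC of every tested gene for LA against vehicle (horizontal axis) and LA against CCM (vertical axis), with 1 point a gene and colours for the calls in each comparison. The 48 red genes called against both controls lie in the lower left and upper right quadrants, whereas many of the 262 orange genes called against vehicle lie near 0 on the vertical axis; both axes share the LA libraries.

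The genes that rose against CCM included Txnip and 2 further alpha-arrestins. Txnip encodes an alpha-arrestin that binds thioredoxin and restrains glucose uptake, and it was measured at 383 and 433 CPM with LA, 210.3 and 203 with CCM and 173 and 178 with vehicle. Both LA libraries lay above all 4 control libraries. The log2 FC against CCM was 0.98 (SE 0.10, adjusted p = 0.00343 by edgeR's quasi-likelihood test), a 1.98-fold difference, and against vehicle it was 1.22 (adjusted p = 0.000216 by edgeR). Arrdc4, a paralogous alpha-arrestin, stood at 26.6 and 28.5 CPM with LA, 13.1 and 9.45 with CCM and 8.81 and 10.4 with vehicle. Again both LA libraries lay above all 4 control libraries, with a log2 FC of 1.29 (SE 0.18) against CCM and 1.51 against vehicle. Arrdc3, an arrestin-domain adaptor for receptor ubiquitination, had 29.5 and 22.3 CPM with LA, 12.7 and 14.6 with CCM and 19.2 and 21.0 with vehicle. It was called against CCM (log2 FC 0.91, adjusted p = 0.0275 by edgeR) and not against vehicle (0.35, adjusted p = 0.318), since its vehicle libraries lay between CCM and LA. Of the 13 tested genes of the list of Txnip, alpha-arrestins and Mlx factors, these 3 were called higher and 0 lower, with a median log2 FC of 0.21. The Myc-related factors of that list that act on carbohydrate-responsive elements were not called: Mlxip (MondoA) had a log2 FC of 0.23 and its partner Mlx one of −0.01.

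Since Txnip and Arrdc4 moved together, their promoters are shown. Txnip lies at chr3:96557957-96561883 on the plus strand and Arrdc4 at chr7:68736995-68749241 on the minus strand (GENCODE M21, GRCm38). The windows run from 250 bases before to 50 bases after a transcription start, from RefSeq on GRCm38.p6, at chr3:96557707-96558006 (plus strand) for Txnip and chr7:68749189-68749488 (minus strand) for Arrdc4. They are written 5′ to 3′ on the gene's strand, with capitals for CCAAT and its reverse complement in both windows, for a pair of E-box-like CACGNG spaced by 5 bases in the Txnip window and for the E-box CACGTG in the Arrdc4 window.
Txnip: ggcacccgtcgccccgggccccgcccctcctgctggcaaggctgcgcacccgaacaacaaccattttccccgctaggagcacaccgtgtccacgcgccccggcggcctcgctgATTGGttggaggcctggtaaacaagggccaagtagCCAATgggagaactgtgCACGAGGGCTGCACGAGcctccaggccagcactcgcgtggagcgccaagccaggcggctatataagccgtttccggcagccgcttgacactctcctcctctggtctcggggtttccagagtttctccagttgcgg
Arrdc4: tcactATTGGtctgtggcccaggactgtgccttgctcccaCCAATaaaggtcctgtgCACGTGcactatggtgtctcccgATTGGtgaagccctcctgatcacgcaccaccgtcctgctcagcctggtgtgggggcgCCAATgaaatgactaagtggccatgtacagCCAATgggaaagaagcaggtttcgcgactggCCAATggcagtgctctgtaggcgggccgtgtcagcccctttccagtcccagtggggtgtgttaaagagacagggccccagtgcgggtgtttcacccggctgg
In the Txnip window the E-box-like pair began 85 bases before the start, with CCAAT matches 137 and 102 bases before it. On either strand this pair was found in 16 of 32851 RefSeq promoter windows (0.0487%). Arrdc4 held 1 CACGTG, 193 bases before the start, a motif found in 7.15% of windows, and 6 CCAAT matches, a number reached by 26 windows (0.0791%). The count of CCAAT matches was looked up after the sequences had been seen. A match of letters is a description and does not show that a factor binds there. Antisense to Txnip the annotation places Gm15441, which had at most 6 counts in any library.

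Several enzymes of sterol synthesis and of acetate use rose against CCM. Of the 45 tested genes of the list of sterol and fatty acid synthesis, 6 were called higher and 0 lower, beside 0.297% and 0.33% of all genes, and the list's median log2 FC was 0.21. Against vehicle 7 were called higher and 0 lower (median 0.23). Between CCM and vehicle 0 were called by edgeR (median −0.03), with 2 higher and 6 lower at an unadjusted p under 0.05 and 0 by DESeq2. For LA against CCM the calls ran from 0, without CCM replicate 2, to 14 higher and 2 lower without the TCM libraries, and DESeq2 called 8 higher and 2 lower.

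Acss2, the cytosolic enzyme that turns acetate into acetyl-CoA, changed most of the list. It was measured at 47.3 and 59.2 CPM with LA, 24.0 and 22.4 with CCM and 31.2 and 31.7 with vehicle. Both LA libraries were above the controls, and the CCM libraries were below those of vehicle. Its log2 FC was 1.20 (SE 0.13, adjusted p = 0.00468 by edgeR) against CCM and 0.77 against vehicle. The annotated span of Acss2 (chr2:155517948-155585724, plus strand) overlaps Ggt7 and Gss on the opposite strand. Nsdhl, a dehydrogenase that removes methyl groups from sterol precursors, had 108 and 109 CPM with LA, 58.7 and 66.6 with CCM and 75.4 and 75.8 with vehicle, without overlap (log2 FC 0.79, SE 0.10, adjusted p = 0.00628 by edgeR). Acat2, which condenses acetyl-CoA at the entry of the pathway, had 101 and 98.6 CPM with LA, 58.2 and 66.4 with CCM and 59.1 and 56.0 with vehicle (log2 FC 0.68). Dhcr7, a late enzyme of cholesterol synthesis, had 67.0 and 69.4, 43.9 and 42.7 and 47.3 and 46.9 CPM in the same order (log2 FC 0.66). For Nsdhl, Acat2 and Dhcr7 alike, both LA libraries lay above the 4 control libraries. Lss, the lanosterol-forming cyclase, had 116 and 126, 83.5 and 81.9 and 94.0 and 92.5 CPM and was called against CCM (0.55) but missed the threshold against vehicle (0.38, adjusted p = 0.0727 by edgeR).

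Other members of the pathway were not called. Sqle, the monooxygenase that commits squalene to sterols, had a log2 FC against CCM of 0.07 (95% interval −0.15 to 0.29), Insig1, the sterol sensor partner, 0.05 (−0.17 to 0.28), Hmgcs1 0.27 (0.02 to 0.52) and the transcription factor Srebf2 0.17 (−0.05 to 0.40). The extremes of the list on the lower side were Mylip (−0.83, adjusted p = 0.0674 by edgeR), an E3 ubiquitin ligase, and the cholesterol exporter Abca1 (−0.64, adjusted p = 0.12), both also uncalled.

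Among Nsdhl, Lss, Acss2, Dhcr7 and Acat2, the genes of this list whose matches were counted, Nsdhl (chrX:72918557-72958514, plus strand) held the most CCAAT matches. Its promoter window held 4, a number reached by 1.06% of windows. They began 109 and 20 bases before the start and at bases 9 and 35 counted from it. The window at chrX:72918271-72918570 (plus strand, GRCm38.p6, RefSeq) is shown with CCAAT and its reverse complement in capitals.
Nsdhl: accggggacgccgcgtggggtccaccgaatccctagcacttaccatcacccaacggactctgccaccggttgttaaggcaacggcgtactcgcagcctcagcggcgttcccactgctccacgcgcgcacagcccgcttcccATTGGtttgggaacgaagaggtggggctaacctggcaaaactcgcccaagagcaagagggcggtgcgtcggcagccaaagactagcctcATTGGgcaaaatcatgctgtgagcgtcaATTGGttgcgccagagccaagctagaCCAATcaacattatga
RefSeq windows were found for 53 of the 76 called genes. A CCAAT was found on either strand for 16 of 27 genes called higher, Lss and Acss2 among them, and for 10 of 26 called lower, where 41.1% of all genes with a window held one. The sterol-responsive letters TCACNCCAC were found for 0 of the 27 and 2 of the 26, beside 1.44% of all genes, which says only that these letters are not in those windows.

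**Figure D2:**
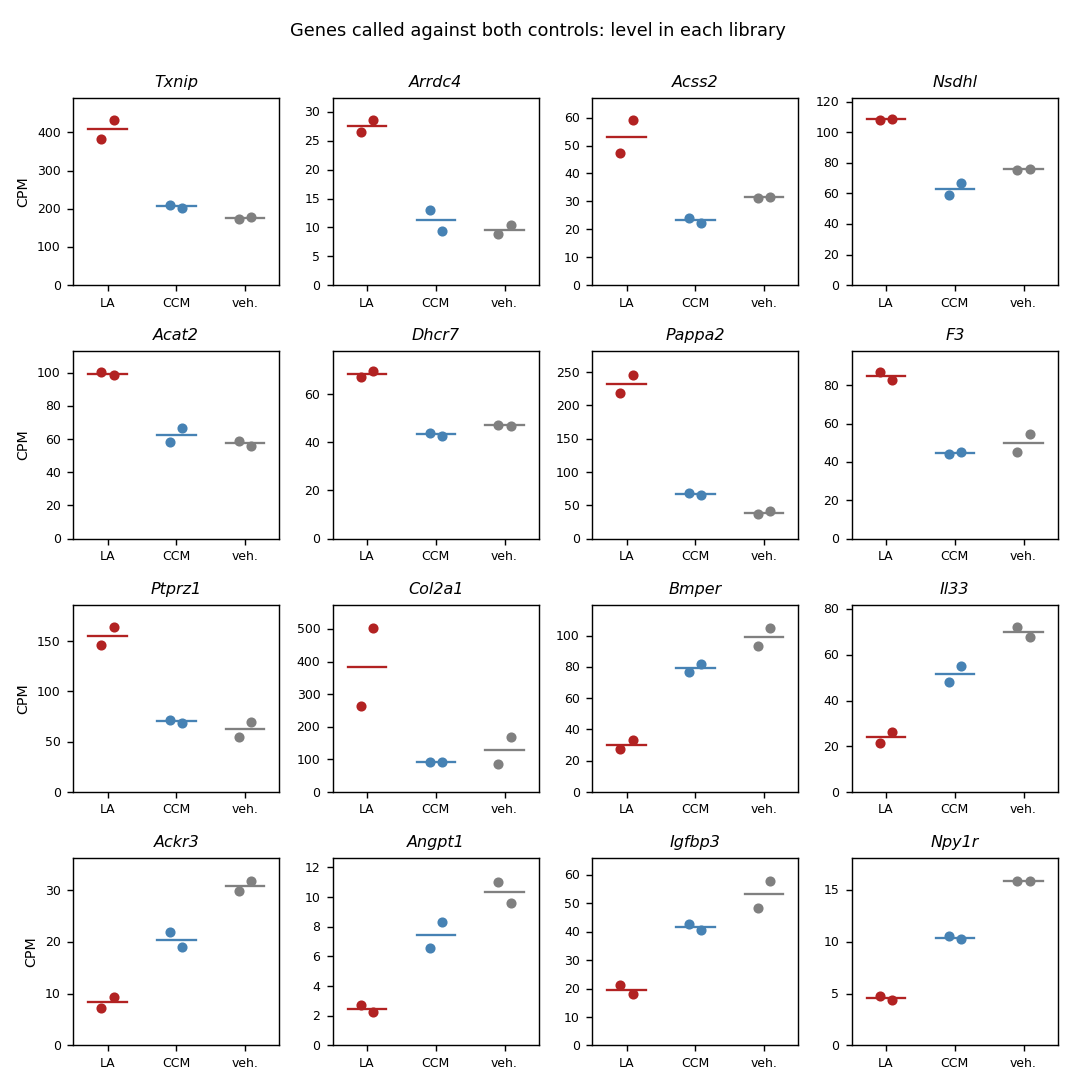
CPM in each library (points, 2 a group) and group means (bars) for 16 genes called against both controls, with LA, CCM and vehicle along the horizontal axis. LA lies above both controls in the upper 10 genes, from Txnip to Col2a1, and below them in Bmper, Il33, Ackr3, Angpt1, Igfbp3 and Npy1r, whose CCM libraries lie under those of vehicle.

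Pappa2, a metalloprotease that cleaves IGF-binding proteins, is encoded at chr1:158711727-158980490 on the minus strand. It was measured at 219 and 246 CPM with LA, 69.1 and 65.7 with CCM and 36.9 and 40.8 with vehicle, and these groups were well apart. The log2 FC was 1.79 (SE 0.20, adjusted p = 0.00606 by edgeR) against CCM, a 3.45-fold difference, and 2.58 against vehicle. Igfbp3, an IGF-binding protein, moved the other way, with 21.1 and 18.0 CPM with LA, 42.8 and 40.7 with CCM and 48.3 and 57.9 with vehicle (log2 FC −1.11, SE 0.14). Of the 15 tested genes of the IGF axis these were the only calls between LA and CCM.

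Tissue factor (F3), the cell-surface starter of coagulation, had 86.8 and 82.8 CPM with LA against 44.2 and 45.0 with CCM and 45.3 and 54.7 with vehicle (log2 FC 0.93, SE 0.11, adjusted p = 0.00606 by edgeR). Ptprz1, a receptor phosphatase that binds pleiotrophin, had 146 and 164 CPM with LA, 71.9 and 68.4 with CCM and 55.0 and 69.8 with vehicle (log2 FC 1.15). Neither showed an overlap between LA and the controls. Col2a1, the collagen of cartilage, had 265 and 502 CPM in the LA libraries, 90.8 and 91.5 with CCM and 87.1 and 168 with vehicle. Its LA libraries were far from each other and 1 vehicle library came near the lower of them, so the log2 FC of 2.08 (SE 0.30) is among the least precise. Of 28 collagen chains tested it was the only one called by edgeR. DESeq2 called 4 chains, of which 1 was higher with LA, beside 147 of all genes. At an unadjusted p under 0.05, 4 chains were higher and 8 lower, beside 550 and 743 of all genes. Among other settings, the edgeR call of Col2a1 was lost without the TCM libraries, with only the libraries compared and with no filter on low counts. Col1a1, the main fibrillar chain, had 16568 and 17212 CPM with LA and 13983 and 12556 with CCM (log2 FC 0.35, 95% interval 0.09 to 0.61, adjusted p = 0.299 by edgeR).

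Of 47 matrix proteases and inhibitors, Pappa2, F3 and the protease inhibitor-like Wfdc18 were called higher and the aggrecanase relative Adamts10 and the mast cell chymase Mcpt4 lower, with a list median of −0.02. Wfdc18 rose from 9.43 and 8.97 CPM with CCM to 19.1 and 28.6 with LA, where vehicle had 2.90 and 3.51. Mcpt4 was low throughout, with 0 and 4 counts with LA and 21 and 21 with CCM, a ratio of CCM to LA of 10.6 (95% counting interval 3.86 to 40.9). Among 69 elastic fibre, proteoglycan and matricellular genes, Abi3bp (log2 FC 1.05) and thrombospondin 1 (Thbs1, 0.67) were called higher and the neurotrophic matrix protein Ndnf lower (−1.38). Thbs1 was abundant at 9595 and 8966 CPM with LA, 5759 and 5871 with CCM and 7609 and 8216 with vehicle. The vehicle level lay between, and Thbs1 was not called against vehicle (0.23, adjusted p = 0.464 by edgeR). Has2, the main hyaluronan synthase of fibroblasts, had 49.3 and 49.1 CPM with LA, 33.7 and 34.2 with CCM and 26.2 and 25.8 with vehicle (log2 FC 0.54).

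On the lower side the smallest adjusted p of the comparison belonged to Bmper (chr9:23223076-23485200, plus strand), a secreted protein that binds BMPs and tunes their signalling. Its level was 27.6 and 33.0 CPM with LA, 76.8 and 82.0 with CCM and 93.5 and 105 with vehicle. The LA libraries were below all controls, with a log2 FC of −1.38 (SE 0.12, adjusted p = 0.0016 by edgeR), 2.60-fold lower than CCM, and −1.70 against vehicle. It was the only one of the 76 genes called under all 15 alternative fits, leaving out each library included. Lrrc32 (GARP), which tethers latent TGF-beta at the cell surface, had 19.1 and 19.6 CPM with LA, 37.4 and 38.9 with CCM and 49.3 and 47.5 with vehicle (log2 FC −0.97). The BMP-family ligand Gdf6 had 6.38 and 7.12, 13.4 and 12.1 and 13.7 and 12.5 CPM (−0.91). Of 47 tested genes of BMP and TGF-beta signalling these 3 were called lower and 0 higher, and the list's median was 0.05. Id1, a target gene of BMP signalling, had a log2 FC of 0.20, and Smad7, an inhibitory Smad, one of 0.06, neither called.

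Of 21 tested chemokines and cytokines, 2 were lower and 0 higher. Interleukin 33 (Il33, chr19:29925114-29960718, plus strand), a nuclear alarmin made by lymph node stroma, was measured at 21.5 and 26.4 CPM with LA, 48.2 and 54.9 with CCM and 72.0 and 67.7 with vehicle. The 3 groups lay apart in that order, with a log2 FC of −1.09 (SE 0.14, adjusted p = 0.00632 by edgeR) against CCM and −1.53 against vehicle. The scavenging chemokine receptor Ackr3, which takes up CXCL12, had 7.32 and 9.30 CPM with LA, 21.9 and 19.0 with CCM and 29.9 and 31.7 with vehicle (log2 FC −1.28, 2.42-fold lower). Its levels followed the same order. Il7, the T cell survival factor of FRCs, was low at 1.42 and 1.83 CPM with LA and 1.26 and 1.53 with CCM, and a difference was not detectable at this depth (95% interval of the log2 FC −0.48 to 1.00).

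Among 36 angiogenic and vasoactive factors, 3 were called lower and 1 higher. Angiopoietin 1 (Angpt1), the activating ligand of Tie2, had 2.72 and 2.25 CPM with LA, 6.57 and 8.31 with CCM and 11.0 and 9.61 with vehicle (log2 FC −1.60, SE 0.23). Angiopoietin 2 (Angpt2), the context-dependent antagonist, had 60.8 and 69.1 CPM with LA, 111 and 106 with CCM and 81.5 and 76.6 with vehicle (log2 FC −0.73). Angpt1 was below both controls, whereas Angpt2 was highest with CCM and was not called against vehicle (−0.28, adjusted p = 0.221 by edgeR). Pdgfc, a growth factor for fibroblasts, was −0.64 and the neuropeptide precursor Nts 0.78 on the log2 FC scale against CCM. Vegfa had 94.3 and 74.7 CPM with LA and 94.0 and 90.9 with CCM, which overlapped (95% interval of the log2 FC −0.46 to 0.19).

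The rest of the genes called lower against both controls had other functions. The neuropeptide Y receptor Npy1r had 4.73 and 4.37 CPM with LA, 10.5 and 10.2 with CCM and 15.8 and 15.8 with vehicle (log2 FC −1.20). Fam180a fell furthest against vehicle, from 5.47 and 7.39 CPM with vehicle and 1.68 and 1.62 with CCM to 0.236 and 0.211 with LA. With only 2 and 3 counts in the LA libraries, its ratio of CCM to LA was 7.50 (95% counting interval 2.94 to 24.5). The kinase Dmpk had a log2 FC against CCM of −1.61, the polyamine acetyltransferase Sat1 one of −0.86, metallothionein Mt1 −1.16, the linker histone H1f2 −0.82, the Notch effector Hey2 −1.02, the death receptor Tnfrsf21 −0.87, the fibroblast marker Pi16 −1.24, Fam20a −1.23, the peptidase Dpp7 −0.87, the amine oxidase Aoc3 −0.82, Hopx −1.01, Uap1l1 −0.75 and the LIM protein Fhl1 −0.56. On the higher side stood the RhoGAP Dlc1 at 0.77, the vitamin D receptor Vdr at 0.99, the actin-associated Sorbs2 at 0.76, the stromal surface protein Cd34 at 0.64, the phosphodiesterase Pde4b at 0.65, the pseudokinase Trib2 at 0.60 and the Rab GTPase Rab3c at 2.23, the last from only 0.926 and 0.573 CPM with CCM.

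Another set of calls against CCM came with a difference between the controls. For a gene called against 1 control and not the other, the test of the difference between these comparisons is CCM against vehicle itself. This was called for 8 of the 28 genes, 6 higher and 2 lower with CCM, beside 0.898% and 0.404% of all genes. The 28 were selected through the same CCM libraries, so these counts describe them and are not independent support. Rsrp1 (chr4:134923592-134927671, plus strand), an arginine- and serine-rich nuclear protein, had 112 and 98.7 CPM with LA, 196 and 185 with CCM and 118 and 115 with vehicle. The nuclear long noncoding RNA Neat1 (chr19:5824708-5845478, minus strand), the scaffold of paraspeckles, had 156 and 152 CPM with LA, 244 and 261 with CCM and 164 and 165 with vehicle. In both, CCM was above all other libraries of the 3 groups, and LA and vehicle were close. Their log2 FC was −0.86 and −0.71 for LA against CCM, −0.15 and −0.10 for LA against vehicle, and 0.71 and 0.62 for CCM against vehicle. The small mitochondrial rRNA gene mt-Rnr1 had 103 and 105 CPM with LA, 263 and 234 with CCM and 151 and 125 with vehicle (log2 FC −1.25, SE 0.15). The complement protease C1s1 (−0.82), the splicing-associated Arglu1 (−0.62) and Spaca6 (−0.90), whose span holds the Mir99b, Mirlet7e and Mir125a genes, completed the 6.

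Wnt11, a noncanonical Wnt ligand, and the adhesion protein Thsd7a were the 2 with lower levels in CCM than in vehicle. Wnt11 had 7.21 and 5.99 CPM with LA, 1.68 and 2.86 with CCM and 7.25 and 4.99 with vehicle, so LA and vehicle overlapped. Thsd7a had 69.8 and 73.0, 46.1 and 43.6 and 72.6 and 85.4 CPM in the same order. The CDC2-like splicing kinases Clk1 (−0.80) and Clk4 (−0.69) were also called lower with LA than with CCM, with 0.62 and 0.50 for CCM against vehicle (adjusted p = 0.0611 and 0.0627 by edgeR).

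Genes of the mitochondrial genome held 0.588% and 0.764% of counts in the LA libraries, 0.903% and 1.06% with CCM and 0.632% and 0.842% with vehicle. Of the 7 tested protein-coding genes of the mitochondrial genome, 0 were called between LA and CCM by edgeR, with 5 lower at an unadjusted p under 0.05 and 3 called by DESeq2, and their median log2 FC was −0.55. The 86 tested nuclear-encoded subunits of oxidative phosphorylation had a median of −0.03, with 0 called by edgeR or DESeq2 and 1 at an unadjusted p under 0.05. The part of this share in the differences of Rsrp1, Neat1 and mt-Rnr1 was not tested.

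**Figure D3:**
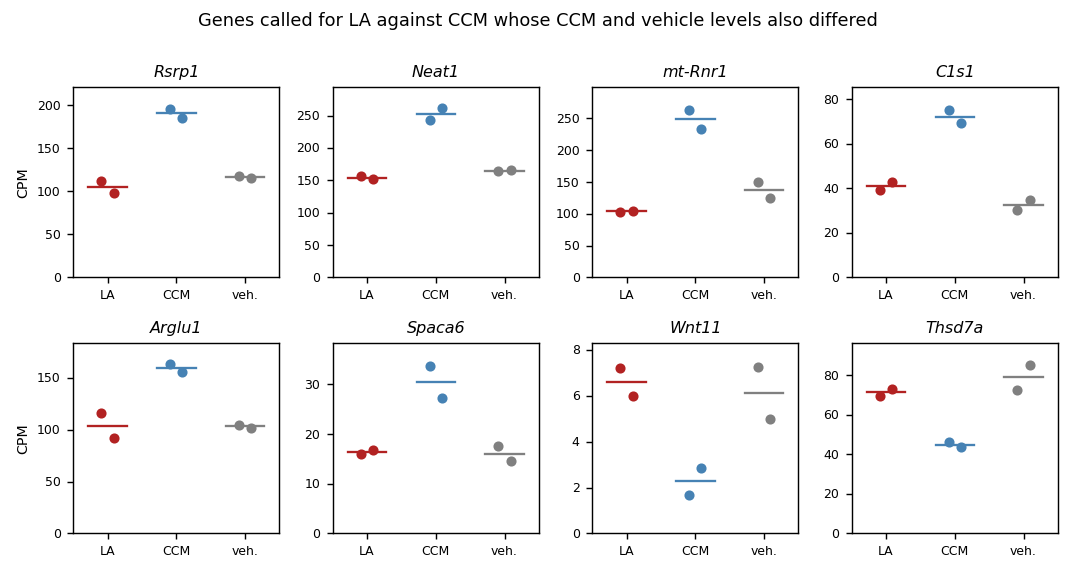
CPM in each library (points) and group means (bars) for the 8 genes called between LA and CCM that were also called between CCM and vehicle but not between LA and vehicle. CCM stands above LA and vehicle in the first 6 genes and below them in Wnt11 and Thsd7a.

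In the other 20 genes called against CCM and not against vehicle, the mean vehicle level lay between those of LA and CCM. Since neither LA nor CCM was called against vehicle in these genes, their selection largely fixed this order, and it is no further support. The natriuretic peptide clearance receptor Npr3 had 601 and 569 CPM with LA, 349 and 361 with CCM and 436 and 479.6 with vehicle (log2 FC 0.72 against CCM and 0.35 against vehicle). The aldehyde dehydrogenase Aldh1a7 had 55.4 and 46.8, 26.0 and 30.0 and 42.2 and 42.3 CPM in the same order. Further genes on the higher side were Ehd4 (log2 FC 0.59 against CCM), Zfp703 (0.57), Pgm5 (0.79), Gcnt1 (0.58), Scube3 (0.84) and the cartilage transcription factor Sox9 (0.55). On the lower side were the antisense transcript Dnm3os (−0.95), the snoRNA host Snhg12 (−0.84), Mrvi1 (−1.66), the opioid precursor Penk (−1.40) and Clec3b (−1.78). DESeq2 called neither Penk nor Clec3b, and Clec3b was also not called by edgeR with the replicate number as a block.

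Many genes of cell division changed against vehicle and were not called against CCM. Of 59 genes of mitosis and S phase, 0 were called between LA and CCM by edgeR, with 1 higher and 3 lower at an unadjusted p under 0.05 and 0 called by DESeq2, and the median log2 FC was −0.04. Against vehicle, 30 were called higher with LA (median 0.55), beside 1.31% of all genes. Between CCM and vehicle, 33 were called higher with CCM (median 0.59), beside 0.898% of all genes. These last 2 comparisons share the vehicle libraries. Mki67, the proliferation antigen, had 209.7 and 212 CPM with LA, 198 and 175 with CCM and 124 and 116 with vehicle. Topoisomerase 2 alpha (Top2a), needed to separate chromosomes, had 344 and 316, 322 and 308 and 219 and 201 CPM. In both genes LA and CCM lay side by side above vehicle. The mitotic kinase Cdk1 had 123 and 110.2 CPM with LA, 112 and 113 with CCM and 74.7 and 71.7 with vehicle, and the helicase subunit Mcm5 had 111 and 103, 118 and 118 and 73.6 and 70.1 CPM. The 95% interval of the log2 FC between LA and CCM was −0.14 to 0.50 for Mki67, −0.16 to 0.30 for Top2a, −0.17 to 0.27 for Cdk1 and −0.35 to 0.06 for Mcm5, which bounds the difference but does not show equality. The centromere protein Cenpf came nearest to a call (0.41, adjusted p = 0.163 by edgeR). With an LA or vehicle library left out, the number called higher with LA than with vehicle was 1 without LA replicate 1, 5 without LA replicate 2, 6 without vehicle replicate 1 and 0 without vehicle replicate 2, while the median stayed between 0.46 and 0.61. Without any 1 of the CCM or vehicle libraries, 0 were called between CCM and vehicle, with medians of 0.52 to 0.64.

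**Figure D4:**
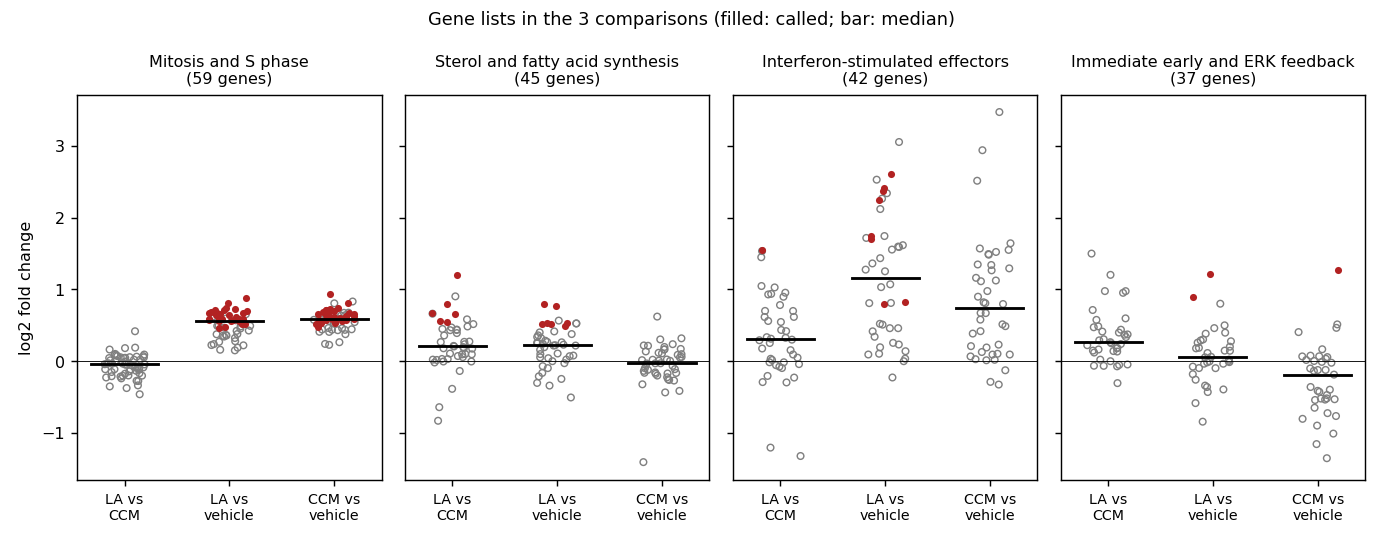
Log2 FC of each tested gene in 4 lists (points, filled where called, with a bar at the median) for LA against CCM, LA against vehicle and CCM against vehicle. Genes of mitosis and S phase centre on 0 between LA and CCM and lie above 0 in both comparisons with vehicle. Those of sterol and fatty acid synthesis have a median above 0 in both LA comparisons and near 0 between the controls. Some of them lie below 0 in each comparison.

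Other genes with the smallest adjusted p against vehicle that were not called against CCM included the serpins Serpinb9b and Serpinb1a, which restrain granule proteases. Serpinb9b had 32.7 and 30.9 CPM with LA, 34.5 and 37.5 with CCM and 87.9 and 72.1 with vehicle, with LA and CCM both far under vehicle (log2 FC −0.18 against CCM and −1.33 against vehicle). The receptor phosphatase Ptprd (−0.97 against vehicle), adenosine deaminase Ada (−1.67) and the chemokine Cxcl15 (−1.96) were lower than vehicle, at −0.14, −0.62 and −0.95 against CCM. On the higher side were the fatty acid carrier Fabp4, with 31.8 and 34.2 CPM with LA, 35.0 and 34.6 with CCM and 13.3 and 14.8 with vehicle, the interleukin 1 receptor antagonist Il1rn (0.99 against vehicle, 0.45 against CCM), the purine transporter Slc43a3 (0.77, 0.28) and Armcx4 (1.15, 0.37). CCM against vehicle was called for Serpinb9b, Serpinb1a, Ptprd, Ada, Cxcl15, Fabp4, Il1rn and Slc43a3, and not for Armcx4 or Cenpf. Over all 262 genes called against vehicle and not against CCM, the difference between the comparisons, tested as CCM against vehicle, was called for 58 higher and 23 lower genes. Of all tested genes 0.898% were higher and 0.404% lower. The 262 were selected through the same vehicle libraries, so these counts describe them and are not independent support. For the remainder of the 262, a difference between the 2 comparisons was not shown.

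Interferon-stimulated genes showed an intermediate pattern that turned on 1 CCM library. Of 42 tested effectors, edgeR called 1 higher with LA than with CCM and 0 lower (median log2 FC 0.30). DESeq2 called 4, all higher, beside 74 higher of all genes. At an unadjusted p under 0.05, 12 were higher and 1 lower, beside 550 and 743 of all 12137 genes. Against vehicle edgeR called 8 effectors higher (median 1.16), beside 1.31% of all genes, and DESeq2 called 14 higher, beside 168 of all genes. Between CCM and vehicle 0 effectors were called by edgeR and 2 by DESeq2, with 19 higher at an unadjusted p under 0.05 (median 0.73). The gene that edgeR called against CCM was Ifi27l2a, an interferon-induced mitochondrial protein. It had 8.51 and 12.5 CPM with LA, 3.79 and 3.53 with CCM and 2.23 and 1.94 with vehicle (log2 FC 1.55, SE 0.26). Isg15, the ubiquitin-like modifier, had 24.8 and 24.7 CPM with LA, 16.9 and 8.40 with CCM and 8.81 and 6.10 with vehicle. Its CCM libraries differed from each other, and it was not called against CCM (log2 FC 0.95, adjusted p = 0.153 by edgeR). Bst2 (tetherin) behaved alike, with 27.1 and 33.7, 18.4 and 11.5 and 9.93 and 9.05 CPM. Mx1, a GTPase against viruses, had 0.709 and 0.352 CPM with LA and 2.02 and 0.382 with CCM, where the higher CCM library exceeded both LA libraries. The summed level of the 42 genes was 1004 and 1014 CPM with LA, 948 and 732 with CCM and 728 and 673 with vehicle. Without CCM replicate 1 the list's median against CCM was 0.89 and 3 genes were called, whereas without CCM replicate 2 it was 0.02 with 0 called.

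Of 37 genes of the early response and its ERK feedback, 0 were called between LA and CCM by edgeR and 3 by DESeq2, with a median log2 FC of 0.26. At an unadjusted p under 0.05, 13 were higher and 0 lower, beside 550 and 743 of all 12137 genes. Between LA and vehicle the median was 0.05, with 5 higher and 4 lower at that p, beside 846 and 885 of all genes. Between CCM and vehicle the median was −0.19, with 3 higher and 14 lower, beside 889 and 674 of all genes. By edgeR 2 were called higher with LA than with vehicle and 1 higher with CCM than with vehicle. Fos had 15.1 and 9.37 CPM with LA, 5.39 and 2.96 with CCM and 11.9 and 9.79 with vehicle. LA and vehicle were near each other and CCM was lower (log2 FC 1.50 against CCM, adjusted p = 0.0815 by edgeR, and 0.14 against vehicle). Egr1 had 394 and 194, 133 and 121 and 311 and 165 CPM and varied widely within LA and within vehicle.

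Over the 35 gene lists examined, 22 had 0 calls by edgeR between LA and CCM. They hold 723 distinct tested genes, of which 93 had an unadjusted p under 0.05 and 9 were called by DESeq2. Over all 12137 tested genes these counts were 1293 and 147, which are similar shares. With 0.626% of all genes called by edgeR, 0 calls in a list is not a result about its members. The list of lactate, pyruvate and proton handling was among the 22 (44 tested, median 0.02). The lactate importer Slc16a1 (MCT1) had 36.5 and 38.7 CPM with LA, 33.0 and 36.1 with CCM and 32.8 and 32.9 with vehicle. The exporter Slc16a3 (MCT4) was low, at 1.42 and 2.54 and 1.52 and 1.43 CPM with LA and CCM. Lactate dehydrogenase A (Ldha) had 688 and 662 CPM with LA and 528 and 555 with CCM, which did not overlap, but its log2 FC of 0.32 (95% interval 0.08 to 0.55) missed the threshold (adjusted p = 0.281 by edgeR). Hif1a had a log2 FC of 0.07 and Gapdh one of 0.04. The 43 genes of glycolysis, glucose uptake and the pentose phosphate pathway had a median of 0.11, the 38 HIF pathway and hypoxia targets 0.12, the 56 ATF4 and amino acid synthesis genes 0.03, the 46 NRF2 and glutathione genes −0.11, the 43 lysosome and autophagy genes −0.10 and the 76 cytoplasmic ribosomal proteins −0.19, where all genes had −0.01. Of 13 tested genes of FRC identity, Cd34 was the 1 called (median −0.06). YAP/TEAD targets had 1 higher and 1 lower call of 30, F3 and Igfbp3, and Wnt signalling had Wnt11 as 1 higher call of 41.

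The count of calls changed little with the scaling and fell when a library was left out. With DESeq2's size factors 75 genes were called and without TMM factors 85, and 74 of the 76 genes were also called by DESeq2, which called 147. Without LA replicate 1 there were 7 calls, without LA replicate 2 there were 5 (3 of them among the 76), without CCM replicate 1 there were 10 (7 among the 76) and without CCM replicate 2 there was 1. Leaving out vehicle replicate 1 or 2 gave 43 or 42 calls. The median absolute log2 FC of the 76 genes was 0.87 with all libraries and 0.87 to 0.93 with 1 left out. Each of the 76 kept its direction in these fits, which their lack of overlap between LA and CCM largely fixed in advance. These genes were selected by their difference with all libraries, so neither result measures stability. Tested against the fold threshold itself with edgeR's glmTreat, 7 genes passed: Acss2, Pappa2, Ptprz1 and Txnip higher, and Bmper, Dmpk and mt-Rnr1 lower. Txnip and Acss2 were each called in 14 of 15 alternative fits, the exception being the fit without CCM replicate 2.

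**Figure D5:**
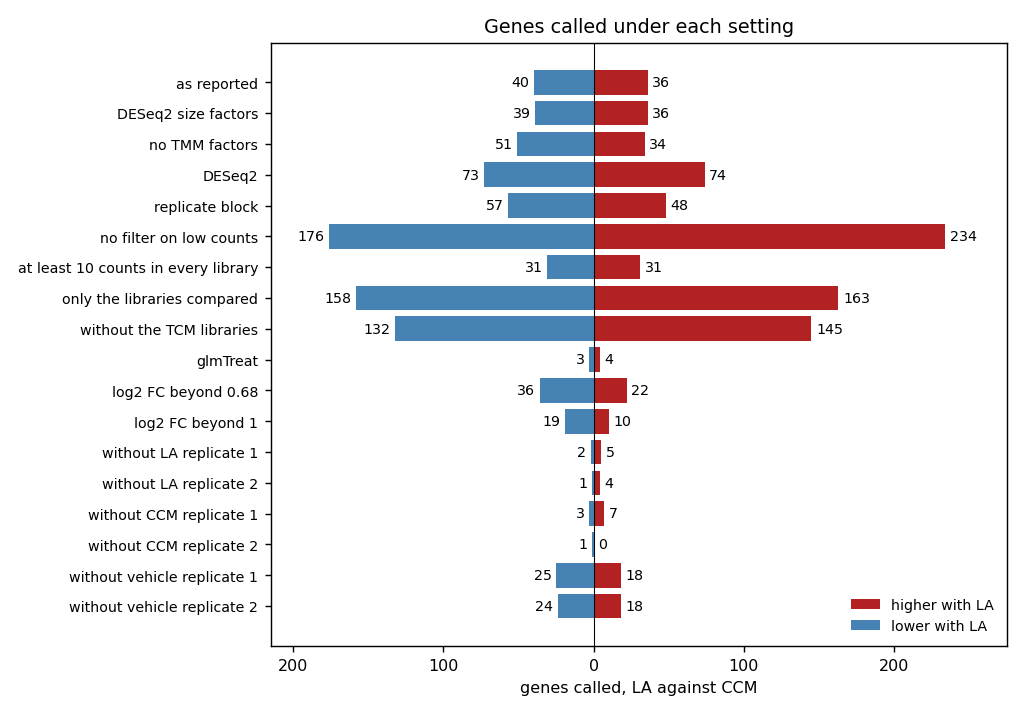
Number of genes called between LA and CCM, higher (right) and lower (left) with LA, under each setting of the fit. The count was between 1 and 10 when an LA or CCM library was left out, and 277 without the TCM libraries, 321 with only the libraries compared and 410 with no filter on low counts.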

How the data were processed

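Poly(A) RNA of the FRC line was sequenced as directional libraries. Per the labels, reads were aligned with STAR 2.7.0a to GRCm38 and counted with featureCounts (Subread 2.0.1), and the authors deposited raw counts, as whole numbers for each gene. Whether counting used the strand is not given in the sources used here. A second table named for normalized counts was not used, and 0 sample columns of the count table were left unused. Libraries were assigned from their labels.

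A gene was tested if 3 or more libraries had 10 or more counts for it. TMM factors and edgeR 4.0.16 (robust quasi-likelihood fit, 1 mean per group, all 8 libraries) in R 4.3.3 gave log2 FC, with Benjamini-Hochberg adjustment over all 12137 genes. CPM used TMM-scaled library sizes, and 3 counts in a library were taken as the floor. The total counts of each library set the precision, and with 2 libraries a group the spread was shared across groups and genes. Intervals are at 95%. DESeq2 1.42.0, the tool of the authors' own tests, was an alternative. The script was tested on simulated data. Gene positions come from GENCODE M21, in which H1f2 stands as Hist1h1c, and promoters from RefSeq on GRCm38.p6.

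The gene lists and the genes named were chosen with earlier results of these data known. Named were the 12 genes in each direction with the smallest adjusted p between LA and CCM, the 10 in each direction called against both controls with the largest smaller log2 FC, the 5 in each direction with the smallest adjusted p called against 1 control alone, 10 transcripts of interest, and list members called. The other called genes are named to account for the 76, except 1 that is not reported here, and uncalled list members named beside them were picked for their function or values. No columns of the authors' own comparisons were used.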

Additional observations from a re-analysis of the deposited data

How the results depend on the processing

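Leaving out each LA, CCM and vehicle library in turn, which assumes that the lone library varies like the others, gave 1 to 43 genes called between LA and CCM (0 to 18 higher and 1 to 25 lower), 1 to 18 called against both controls, 57 to 186 called between LA and vehicle and 0 to 119 between CCM and vehicle. In the same order of results (LA against CCM called, higher, lower, called against both controls, LA against vehicle, CCM against vehicle), glmTreat gave 7, 4, 3, 4, 56 and 2, a log2 FC beyond 1 gave 29, 10, 19, 22, 86 and 19, no filter on low counts gave 410, 234, 176, 165, 656 and 584, and the fit without the TCM libraries gave 277, 145, 132, 126, 616 and 491. A log2 FC beyond 0.68 gave 22 higher genes between LA and CCM, 176 genes between LA and vehicle and 84 between CCM and vehicle. With only the libraries compared, 321 genes were called between LA and CCM (163 higher and 158 lower), 116 against both controls and 679 between CCM and vehicle. DESeq2 called 147 between LA and CCM (74 higher and 73 lower). The cause of these shifts was not tested.

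Other settings kept each of these counts within 1.5 times. Among them, the replicate block called 105 genes between LA and CCM (48 higher and 57 lower), 75 of them among the 76, 356 between LA and vehicle, 193 between CCM and vehicle and 54 against both controls. Deviations of same-numbered libraries from their group means had a correlation across genes of −0.081 for LA with CCM, 0.35 for LA with vehicle and −0.041 for CCM with vehicle, and the labels tie the numbers to no shared source. Without TMM factors 34 genes were higher and 51 lower, with a median of −0.04 over all genes. Called genes could hardly change sign, because their LA and CCM libraries did not overlap. Of 117 genes whose log2 FC against CCM was recomputed, 10 changed sign, none of them called. With each library left out in turn it ran from −0.083 to 0.15 for Gapdh, −0.058 to 0.78 for Slc16a3, −0.31 to 0.028 for Vegfa, −0.029 to 0.13 for Cdk1, −0.0061 to 0.14 for Sqle, −0.034 to 0.14 for Insig1 (−0.028 without CCM replicate 1), −0.17 to 0.24 for Smad7, −2.02 to 0.35 for Mx1, −0.023 to 0.0048 for Mlx and −0.086 to 0.076 for Ltbr (0.042 without LA replicate 2 and 0.00047 without vehicle replicate 2). Ltbr was also above 0 with DESeq2 size factors (0.0019), DESeq2 (0.0018), no filter (0.019) and no TCM libraries (0.0014), and Mlx with the last 3 of these (5.8e-05, 0.017 and 0.00032). Depth limits Il7, Slc16a3, Mx1, Mcpt4 and Fam180a, which had few counts.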
